A study of Mus musculus with 10 samples.

Results

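Small RNA was compared between the 2 cell types sorted from Day 6 embryoid bodies of one mouse embryonic stem cell (mESC) line, BG5: mouse primordial germ cell-like cells (mPGCLCs) and the surrounding embryoid body cells, called non-PGCLC. The libraries compared are those labelled BG5 mPGCLC, of which there are 2, and BG5 non-PGCLC, also 2, making 4 of the 10 libraries of the series. The other 6 libraries, from E14 mPGCLC, E14 non-PGCLC and SGET non-PGCLC cells, contributed to the estimate of the spread, and E14 was the line with which the BG5 difference was compared.

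BG5 is a male line on a mixed C57BL/6J, DBA and 129 background that carries a Blimp1-GFP reporter. Both BG5 groups share that genotype, the passage from ground-state mESCs through epiblast-like cells, and the aggregation with BMP4, BMP8, SCF, LIF and EGF, so neither is an untreated control. The study's methods give SSEA1 and Blimp1-GFP positivity as the gate for BG5 mPGCLCs, whereas the labels of all samples name a gate on Stella-GFP and Esg1-tdTomato, reporters that the methods give to the SGET line. The non-PGCLC group is the negative fraction of the sort, a mixture of whatever else the embryoid bodies contained. The results hold for 1 line, and nothing in the labels says that replicates came from separate differentiations, so p-values measure only the spread between these libraries, which may be technical.

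miRNAs are cut by Drosha and Dicer from hairpin transcripts, and each hairpin can give a 5p and a 3p arm. Bases 2 to 8 of an arm form the seed, which pairs with target transcripts, so arms with the same seed share many of their targets. In pluripotent cells and early germ cells the miR-290 and miR-302 clusters are the best known miRNAs. The let-7 family accumulates as cells leave pluripotency, while LIN28, a protein of pluripotent and early germ cells, blocks its maturation. The miR-199 and miR-214 genes, of which Mir199a-2 and Mir214 lie in the Dnm3os transcript, are known from mesenchyme.

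The 4 libraries held 8251090 and 10227279 mapped reads for mPGCLC replicates 1 and 2, and 9453155 and 14444567 for non-PGCLC replicates 1 and 2. Levels are given in RPM, the reads of an arm per 1000000 reads of the library, in the order replicate 1 and replicate 2. A single read was worth 0.0692 to 0.121 RPM. PCR copies were not removed, so counting intervals and floors cover counting error only. Among the 561 arms tested, 48 had no read in one mPGCLC library and at least 100 in the other, and the same held for 66 arms between the non-PGCLC libraries. In bulk samples such as these, fewer cells of a type and less RNA per cell cannot be told apart.

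The first comparison asked which miRNA arms differ between germ cell-like cells and their neighbours within BG5. Of 561 arms tested, 69 passed an adjusted p of 0.05 (edgeR quasi-likelihood test, Benjamini-Hochberg), which is 12.3%. Higher in mPGCLCs were 28 arms (4.99%) and lower were 41 arms (7.31%). These tests scaled each library by its total reads, and the median log2 of the 527 tested arms with a BG5 read was -0.92. When libraries were instead scaled by the trimmed mean of M-values (TMM), that median was -0.16 and the split was 47 higher (8.38%) and 32 lower (5.7%). Of the 69 arms, 60 were also called under TMM scaling, and none was called in the opposite direction. The 2 groups did not overlap for 296 of the arms tested (52.8%), of which 98 were higher (17.5%) and 198 lower (35.3%) in mPGCLCs, so the absence of overlap alone sets no arm apart.

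The arms that rose included members of the miR-290 and miR-302 clusters and those that fell included let-7, miR-199, miR-214, miR-125b and miR-100. Their mature sequences, from RefSeq on GRCm38.p6, are printed here because many of the called arms share a few seeds. Of the 117 arms named or called, 99 were matched to an entry, and of the 561 tested arms 479 were. Counts and sums by seed cover only matched arms. Capitals mark the seed. The largest family among the falling arms is let-7, with the seed GAGGUAG, of which let-7g was added after its value was seen to complete the family.
let-7a-5p: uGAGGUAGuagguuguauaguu
let-7b-5p: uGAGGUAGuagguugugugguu
let-7c-5p: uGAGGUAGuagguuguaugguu
let-7d-5p: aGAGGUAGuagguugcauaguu
let-7e-5p: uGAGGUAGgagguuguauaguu
let-7f-5p: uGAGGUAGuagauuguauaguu
let-7g-5p: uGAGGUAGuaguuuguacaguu
let-7i-5p: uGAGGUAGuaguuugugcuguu

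Of the 9 tested arms matched to an entry with this seed, 8 fell and none rose, with a median log2 of -4.85 (-4.26 under TMM). Over all arms 7.31% fell, and the median of those with a BG5 read was -0.92 (-0.16 under TMM). The seed families shown were picked for their called arms, so their counts follow in part from that choice. Summed over those 9 arms, the level was 1607 and 829.9 RPM in mPGCLCs against 31267 and 24398 RPM in non-PGCLC cells.

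The largest family among the rising arms joins members of both pluripotency clusters through the seed AAGUGCU, and miR-294-3p was added in the same way.
miR-291a-3p: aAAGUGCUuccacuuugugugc
miR-294-3p: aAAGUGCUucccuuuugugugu
miR-295-3p: aAAGUGCUacuacuuuugagucu
miR-302b-3p: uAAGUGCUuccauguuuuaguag
miR-302d-3p: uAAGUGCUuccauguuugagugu

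Each of the 5 tested arms matched to an entry with this seed rose, beside 4.99% of all arms, with a median log2 of 3.36 (4.05 under TMM). Mir302a-3p, which was not called, had no matched entry and is not among them. The 5 arms summed to 11907 and 8899 RPM in mPGCLCs and to 969 and 1189.9 RPM in non-PGCLC cells. A second rising family came from the 5p side of the miR-290 cluster, with the seed CUCAAAC.
miR-290a-5p: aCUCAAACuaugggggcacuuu
miR-292a-5p: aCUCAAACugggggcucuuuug

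All 3 tested arms matched to an entry with that seed rose, beside 4.99% of all arms. Together they were the most abundant of the called seed families in mPGCLCs, at 48308 and 32580.1 RPM against 5673 and 5929 RPM. Among the falling arms, miR-125a, miR-125b and miR-351 share the seed CCCUGAG although their genes lie on different chromosomes. All 3 fell, beside 7.31% of all arms.
miR-125a-5p: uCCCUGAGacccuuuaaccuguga
miR-125b-5p: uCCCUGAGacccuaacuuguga
miR-351-5p: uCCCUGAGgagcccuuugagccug

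Summed levels of the CCCUGAG family were 2370.5 and 1951 RPM in mPGCLCs and 14935 and 12401 RPM in non-PGCLC cells. Sequences of the other leading arms follow, so that the values given further on can be tied to a molecule. Levels count all reads of an arm, including those that begin at another base than the printed 5′ end. For Mir214-3p, 72.4% and 34.8% of mPGCLC reads and 52.2% and 48.6% of non-PGCLC reads began at that end. For miR-199a-3p these were 67.5% and 79.0%, and 71.8% and 72.5%. Each other arm listed here had a larger part in the non-PGCLC libraries. The seed of miR-100 is also that of miR-99b, which fell too.
miR-199a-5p: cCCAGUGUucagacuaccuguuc
miR-199a-3p: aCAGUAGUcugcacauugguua
miR-214-3p: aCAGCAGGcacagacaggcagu
miR-100-5p: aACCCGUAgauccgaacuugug
miR-574-5p: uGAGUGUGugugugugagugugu
miR-205-5p: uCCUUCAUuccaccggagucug
miR-335-3p: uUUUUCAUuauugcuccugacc
miR-483-5p: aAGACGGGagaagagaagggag

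**Figure D1:**
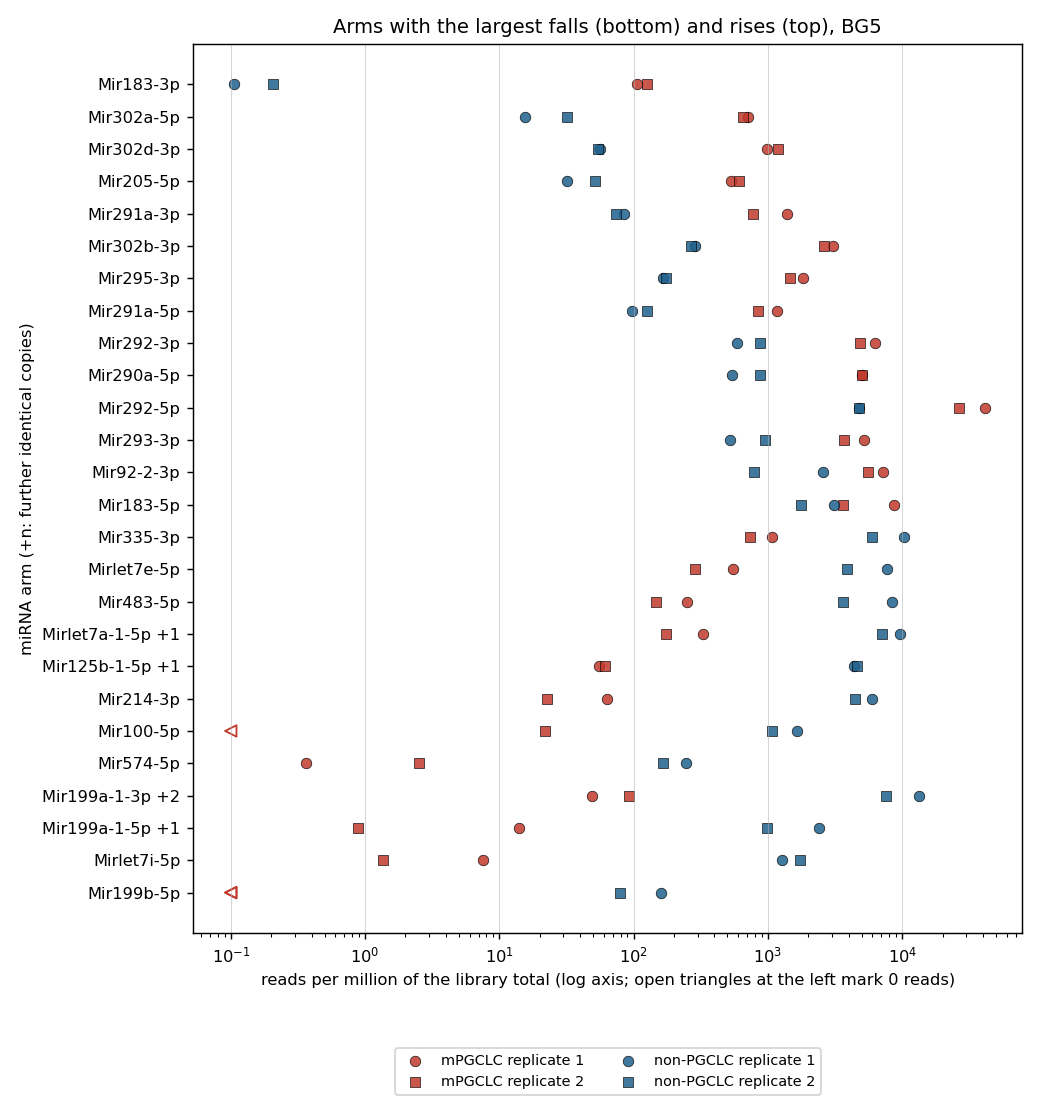
RPM (log axis) of the arms with the largest falls and rises, 1 row per arm and 1 point per BG5 library (red, mPGCLC; blue, non-PGCLC; circle, replicate 1; square, replicate 2; open triangle, 0 reads). In each row the red points lie on one side of the blue points, as the choice of arms required.

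The miR-290 cluster is a run of hairpins on chromosome 7, from Mir290a at chr7:3218626-3218708 to Mir295 at chr7:3220773-3220841 on the plus strand, with no host gene on that strand in GENCODE vM21. Its summed level was 71193 and 48473 RPM in mPGCLCs and 7803 and 9058 RPM in non-PGCLC cells, 7.1 times as high, and of its 14 tested arms 12 rose and none fell, beside 4.99% of all arms that rose. The most abundant arm, Mir292-5p, stood at 41191 and 26276 RPM against 4803 and 4767 RPM (log2 2.82, SE 0.34, adjusted p = 6.94e-07). Mir292-3p, from the other side of that hairpin, stood at 6228 and 4859 against 589 and 877 RPM (log2 2.92, SE 0.34, adjusted p = 6.07e-07). For both arms the lower mPGCLC value exceeded the higher non-PGCLC value severalfold.

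Mir290a-5p had 5058 and 5043 RPM in mPGCLCs and 539 and 867 RPM in non-PGCLC cells (log2 2.84, SE 0.35, adjusted p = 1.01e-06). Mir293-3p had 5201 and 3707 against 523 and 945 RPM (log2 2.60, SE 0.37, adjusted p = 6.60e-06). Among the called arms of the cluster, 2 with the AAGUGCU seed had the largest log2 differences. Mir291a-3p had 1398 and 769 against 84.2 and 73.7 RPM (log2 3.78, SE 0.44, adjusted p = 6.44e-07), and Mir295-3p had 1834 and 1466 against 165 and 174 RPM (log2 3.28, SE 0.38, adjusted p = 5.90e-07). The 5p partner Mir291a-5p moved with them, at 1159.6 and 849 against 96.6 and 126 RPM (log2 3.17, SE 0.39, adjusted p = 1.01e-06). The cluster was lower but present in the non-PGCLC fraction, where it made up 0.78% and 0.906% of all reads, against 7.12% and 4.85% in mPGCLCs. With the 4 BG5 libraries fitted alone, Mir292-5p no longer passed the test (adjusted p = 0.0556).

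The miR-302 cluster lies on chromosome 3, with Mir302b at chr3:127545228-127545301 and Mir302d at chr3:127545624-127545689 on the plus strand. It is known from epiblast-stage pluripotent cells. Summed over its arms it reached 5088 and 4878 RPM in mPGCLCs and 396 and 354 RPM in non-PGCLC cells, 13.3 times as high. Of 8 tested arms 3 rose and none fell, beside 4.99% of all arms that rose. All 8 had a log2 above 0, as did 199 of the 527 tested arms with a BG5 read.

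Mir302b-3p carried most of the cluster's reads, with 3068 and 2605 RPM against 287 and 266 RPM (log2 3.36, SE 0.49, adjusted p = 9.92e-06). Mir302d-3p had 987 and 1195 against 56.2 and 53.9 RPM (log2 4.31, SE 0.81, adjusted p = 3.46e-04). Mir302a-5p had 709 and 651 against 15.6 and 31.9 RPM (log2 4.84, SE 1.33, adjusted p = 0.0134), a call that was lost with a stricter filter on low counts (adjusted p = 0.0529). The levels of the 2 mPGCLC libraries lay close together in each of the 3 arms. The groups did not overlap, with mPGCLCs higher, as for 17.5% of all tested arms. Mir302a-3p, with 185 and 174 against 34.8 and 1.38 RPM, did not pass the test (adjusted p = 0.298).

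Most Mir302a-5p reads did not begin at the base that RefSeq gives as its 5′ end. Only 2.2% and 13.7% of them did in mPGCLCs, and the leading read, with 76.5% of the arm's mPGCLC reads on average, began further downstream. The shift gives it another seed, as the RefSeq entry and the leading read show side by side.
miR-302a-5p, RefSeq: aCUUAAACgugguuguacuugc
miR-302a-5p, leading read: uAAACGUGguuguacuugcuuu

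The miR-17, miR-106a and miR-106b clusters, known from proliferating and pluripotent cells, showed overlapping sums of 36418 and 26533 RPM in mPGCLCs and 34236 and 17506 RPM in non-PGCLC cells. Of 26 tested arms 1 rose and none fell, beside 4.99% of all arms that rose. Under TMM scaling 8 rose, beside 8.38% of all arms. Mir92-1-3p, the most abundant arm of the non-PGCLC libraries, had 19049 and 14165 RPM in mPGCLCs and 23839 and 12918 RPM in non-PGCLC cells, and its log2 was -0.15 with total-read scaling and 0.60 under TMM, neither past the threshold. Mir92-2-3p was the arm that rose, from 2583 and 785 RPM to 7159.8 and 5585 RPM (log2 1.92, SE 0.42, adjusted p = 0.00164), and the call was lost with the BG5 libraries alone (adjusted p = 0.14).

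Mir92-1 and Mir92-2 give the same mature miR-92a-3p. Their reads were told apart by their last bases alone, so a Mir92-1 read with an added A cannot be told from a Mir92-2 read. Mir93-5p had 3246 and 2081 RPM against 1971 and 1157 RPM, with an adjusted p of 0.22 under total-read scaling and 3.08e-04 under TMM. Mir25-3p had 1279 and 915 RPM against 1242 and 662 RPM, with an adjusted p of 0.855 and 0.0309, respectively.

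The X-linked miR-465 and miR-871 cluster, a rodent cluster known from germ cells, was at low level throughout. It summed to 221 and 159 RPM in mPGCLCs and 13.0 and 34.2 RPM in non-PGCLC cells, and 4 of its 20 tested arms, of which 15 had a BG5 read, rose while none fell, beside 4.99% of all arms that rose. The Mir465c-5p arm (2 identical copies) had 53.4 and 24.4 RPM in mPGCLCs against 0 and 1 read in the non-PGCLC libraries, a ratio of 894 with an exact 95% counting interval of 159.9 to 35348 (adjusted p = 1.24e-04). The Mir465-3p arm shared by 5 gene copies had 23.8 and 34.2 RPM against 1 and 2 reads, a ratio of 235 (80.1 to 1145, adjusted p = 1.65e-04). Both calls were lost with the BG5 libraries alone (adjusted p = 0.0733 and 0.0843). Mir470-5p, with 23.1 and 25.1 against 0.212 and 8.17 RPM, and the Mir465b-5p arm, with 49.9 and 2.54 against 12.5 and 0 RPM, did not pass the test. The other arms that rose, named after their values were seen, were Mir741-3p, with 40.5 and 10.8 RPM against 0 and 1 read (adjusted p = 0.0323), and Mir871-3p, with 15.4 and 18.9 RPM against 0 and 4 reads (adjusted p = 0.00338).

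The miR-183, miR-96 and miR-182 cluster of chromosome 6, known from sensory epithelia and also expressed in pluripotent cells, summed to 15891 and 7758 RPM in mPGCLCs and 5602 and 4179 RPM in non-PGCLC cells. Of 6 tested arms, 5 of them with a BG5 read, 3 rose, beside 4.99% of all arms. Mir183-5p had 8655 and 3627 RPM against 3127 and 1760.0 RPM (log2 1.33, SE 0.38, adjusted p = 0.0179), and Mir182-5p had 7003 and 3955 against 2394 and 2419 RPM (log2 1.19, SE 0.34, adjusted p = 0.0176). Neither pair of groups overlapped, with mPGCLCs higher, as for 17.5% of all tested arms, but mPGCLC replicate 1 was the higher library in both. Without it the log2 was 0.57 for Mir183-5p (adjusted p = 0.464) and 0.72 for Mir182-5p (adjusted p = 0.172), and neither was called. Mir96-5p had 99.4 and 49.9 against 53.1 and 0 RPM and was not called.

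Mir183-3p, from the other side of the Mir183 hairpin (chr6:30169668-30169737, minus strand), differed far more. It had 106 and 126 RPM in mPGCLCs, from 876 and 1290 reads, and 1 and 3 reads in the non-PGCLC libraries, a ratio of 700.3 with an exact 95% counting interval of 273 to 2573 (log2 9.39, SE 1.30, adjusted p = 5.51e-06). Those same non-PGCLC libraries held 29560 and 25423 reads of the 5p arm. None of the BG5 reads of Mir183-3p began at the RefSeq 5′ end.

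The epithelium list (miR-200 family, miR-205 and relatives), whose members keep epithelial character, summed to 4989.9 and 3816 RPM in mPGCLCs and 1513 and 1502 RPM in non-PGCLC cells. Of 10 tested arms 2 rose and none fell, and 4 rose under TMM, beside 4.99% and 8.38% of all arms that rose. Mir205-5p, from chr1:193507463-193507530 in an exon of the long noncoding gene 4631405K08Rik, had 529.7 and 613 RPM against 31.6 and 51.3 RPM (log2 3.78, SE 0.72, adjusted p = 3.76e-04). Mir200b-3p had 1945 and 1507 against 550.0 and 595 RPM (log2 1.59, SE 0.41, adjusted p = 0.00847), a call lost without mPGCLC replicate 1 and with the BG5 libraries alone (highest adjusted p = 0.129). Mir200c-3p, at 1727 and 1144 against 630.3 and 689.5 RPM (adjusted p = 0.0708), and Mir200a-3p, at 267 and 203 against 85.8 and 58.0 RPM (adjusted p = 0.275), passed under TMM scaling (adjusted p = 7.01e-04 and 0.0309).

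The cluster in an intron of Sfmbt2, an imprinted gene of chromosome 2, summed to 6183 and 3439 RPM in mPGCLCs and 5312 and 3597 RPM in non-PGCLC cells, and the groups overlapped. Of 29 tested arms, 26 of them with a BG5 read, 1 rose, and 5 rose under TMM, beside 4.99% and 8.38% of all arms. Many of its genes are near-identical copies, whose reads were merged or cannot be assigned to 1 gene. The merged Mir669a-5p group had 3228 and 1667 against 3838 and 2295 RPM, and the merged Mir466-3p group had 509 and 282 against 396 and 399 RPM. Mir467e-5p had 439.8 and 275 against 168 and 264 RPM, and Mir466d-3p with Mir466h-3p had 486 and 177 against 126 and 194 RPM. None of these 4 was called with total-read scaling. The arm that rose was Mir669h-5p, named after its value was seen, with 40.5 and 46.8 RPM against 0 reads, at least 166-fold higher against a floor of 3 reads per library.

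The let-7 family acts in differentiated cells and has many targets among growth genes. Its members lie on several chromosomes, for example Mirlet7b at chr15:85707319-85707403 and Mirlet7i at chr10:122985640-122985724. The family summed to 1631 and 839 RPM in mPGCLCs and 31617 and 24809 RPM in non-PGCLC cells, 22.8 times as high in the latter. Of 13 tested arms 9 fell and none rose, with total-read and with TMM scaling alike, beside 7.31% and 5.7% of all arms that fell.

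The most abundant member, the let-7a-5p arm of Mirlet7a-1 and Mirlet7a-2, had 331 and 173 RPM in mPGCLCs against 9629 and 7099.7 RPM in non-PGCLC cells (log2 -5.05, SE 0.45, adjusted p = 2.09e-08). Let-7c-5p had 262 and 85.5 against 5468 and 4519 RPM (log2 -4.85, SE 0.52, adjusted p = 2.48e-07), and let-7e-5p had 551 and 285 against 7719 and 3910.2 RPM (log2 -3.80, SE 0.45, adjusted p = 6.94e-07). Let-7e was the member with the highest mPGCLC level.

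The size of the fall ranged widely over the members. Let-7i-5p had 7.51 and 1.37 RPM against 1282 and 1747 RPM (log2 -8.41, SE 1.49, adjusted p = 1.65e-04), let-7b-5p had 17.6 and 15.9 against 1089 and 1168 RPM (log2 -6.07, SE 0.87, adjusted p = 8.81e-06), and let-7d-5p had 31.0 and 45.4 against 1948 and 2181 RPM (log2 -5.76, SE 0.53, adjusted p = 2.09e-08). Let-7f-5p stood at the other end, with 273 and 121 against 2098 and 2296 RPM (log2 -3.48, SE 0.45, adjusted p = 1.91e-06). In each of these 7 arms both mPGCLC libraries lay far under both non-PGCLC libraries, and differences between members were not tested. Mir98-5p, which has the same seed, had 0.364 and 16.6 against 153 and 103 RPM and was the one arm of the seed family not called.

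The miR-99, miR-100 and miR-125 family, several of whose genes lie beside let-7 genes, was also lower. Mir100 (chr9:41531425-41531504) and Mir125b-1 (chr9:41581926-41582002) flank Mirlet7a-2 in introns of 3110039I08Rik, and Mir99b, Mirlet7e and Mir125a lie in introns of Spaca6 on chromosome 17. The family summed to 3372 and 2881 RPM in mPGCLCs and 19078 and 15022 RPM in non-PGCLC cells, with 4 of 8 tested arms falling, beside 7.31% of all arms, and none rising. Mir125b-5p, summed over Mir125b-1 and Mir125b-2, had 54.8 and 60.8 RPM against 4361 and 4639 RPM (log2 -6.28, SE 0.58, adjusted p = 2.09e-08), and Mir100-5p had 0 and 21.9 against 1646 and 1070.0 RPM (log2 -6.95, SE 1.52, adjusted p = 0.00164).

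The 5p arms of Mir99b and Mir125a, from Spaca6 introns, had log2 values nearer 0 than their neighbour let-7e-5p, at -3.80. Mir125a-5p had 2167 and 1802 RPM against 7630.1 and 5941 RPM (log2 -1.77, SE 0.35, adjusted p = 6.11e-04), and Mir99b-5p had 939.8 and 819.7 against 4193 and 2090.2 RPM (log2 -1.84, SE 0.41, adjusted p = 0.00214). With the BG5 libraries alone the calls for Mir100-5p, Mir125a-5p and Mir99b-5p were lost (adjusted p = 0.123, 0.0665 and 0.0774), and that for Mir99b-5p also without non-PGCLC replicate 1 (adjusted p = 0.092).

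The mesenchyme list of miR-199 and miR-214 had the largest ratio between the cell types of all lists. Mir199a-2 (chr1:162217814-162217923) and Mir214 (chr1:162223368-162223477) lie in exons of Dnm3os on chromosome 1, while Mir199a-1 lies at chr9:21496495-21496564 and Mir199b at chr2:32318460-32318569. The list summed to 144 and 116 RPM in mPGCLCs and 22031 and 13165 RPM in non-PGCLC cells, 135 times as high in the latter, and 4 of its 5 tested arms fell (3 under TMM), beside 7.31% and 5.7% of all arms. The 3p arm shared by all 3 miR-199 genes had 49.2 and 91.9 RPM against 13281 and 7569 RPM (log2 -7.21, SE 0.49, adjusted p = 1.84e-10), and Mir214-3p had 62.9 and 22.8 against 5985 and 4486 RPM (log2 -6.93, SE 0.85, adjusted p = 1.01e-06).

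The miR-199a-5p arm had 13.9 and 0.88 RPM against 2412 and 980.2 RPM (log2 -7.84, SE 1.52, adjusted p = 4.69e-04), a call lost with the BG5 libraries alone (adjusted p = 0.0533). Mir199b-5p had no read in either mPGCLC library and 159 and 79.4 RPM in the non-PGCLC libraries, at least 363-fold lower in mPGCLCs against a floor of 3 reads per library (adjusted p = 0.0429). That call was lost under 7 of its 13 alternatives, including TMM scaling (adjusted p = 0.127). Mir214-5p had 18.2 and 0 against 194 and 50.6 RPM and was not called. None of the 5 arms overlapped between the groups, each lower in mPGCLCs, which held for 35.3% of all tested arms, and Mir199b-5p was the one at 0 in both mPGCLC libraries.

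The fibroblast and smooth muscle list summed to 6914 and 4227 RPM in mPGCLCs and 20381 and 15449 RPM in non-PGCLC cells, and 2 of its 29 tested arms fell, beside 7.31% of all arms. The list median of -0.90 (-0.23 under TMM) stood beside -0.92 (-0.16 under TMM) over all arms. Mir143-3p, a smooth muscle miRNA, had 447 and 185 RPM against 6287 and 4604 RPM (log2 -4.11, SE 0.46, adjusted p = 3.94e-07). Mir21a-5p, from an exon of Vmp1, had 2808 and 1508 against 8148 and 5477 RPM (log2 -1.66, SE 0.37, adjusted p = 0.00191), lost with the BG5 libraries alone (adjusted p = 0.115). Mir24-3p, at 793 and 410.2 against 1219 and 1231 RPM, and Mir27b-3p, at 899.5 and 529 against 1523 and 1137 RPM, did not pass the test.

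The X-linked miR-322 and miR-503 cluster, known from differentiating cells, summed to 538 and 333 RPM in mPGCLCs and 6879.7 and 4699 RPM in non-PGCLC cells, 13.3 times as high in the latter. Of 12 tested arms 4 fell (3 under TMM), beside 7.31% and 5.7% of all arms. All 12 had a log2 below 0, as did 328 of the 527 tested arms with a BG5 read. Mir351-5p had 148 and 88.8 RPM against 2944 and 1820.3 RPM (log2 -4.33, SE 0.55, adjusted p = 1.31e-06), Mir322-3p had 98.0 and 51.1 against 1946 and 1356 RPM (log2 -4.47, SE 0.66, adjusted p = 1.13e-05), and Mir503-5p had 32.4 and 42.3 against 603 and 624 RPM (log2 -4.04, SE 0.83, adjusted p = 7.87e-04). Mir351-3p had 0 and 14.1 against 553 and 174 RPM (adjusted p = 0.0401), and 7 of its 13 alternatives lost the call.

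The Hox cluster miRNAs, miR-10 and miR-196, summed to 398 and 42.4 RPM in mPGCLCs and 5396 and 797 RPM in non-PGCLC cells, so the non-PGCLC libraries differed from each other by more than the closest libraries of the 2 groups did. Of 5 tested arms 2 fell, beside 7.31% of all arms, and neither passed the test under TMM, where 5.7% of all arms fell. Mir10a-5p had 20.6 and 7.82 RPM against 1112 and 458 RPM (log2 -5.79, SE 1.56, adjusted p = 0.0114), and under TMM its adjusted p was 0.0595. Mir196a-5p had 111 and 34.6 against 1259 and 91.8 RPM, with overlapping groups (adjusted p = 0.0179), and without non-PGCLC replicate 1 its log2 was -0.33 and its adjusted p 1. Mir10b-5p, at 175 and 0 against 2475 and 223 RPM, and Mir196b-5p, at 90.9 and 0 against 497 and 23.8 RPM, were not called.

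The Dlk1-Dio3 miRNAs of chromosome 12, an imprinted cluster expressed from the maternal allele, held more non-PGCLC reads than any other list, with 73959.9 and 48280.2 RPM against 25253 and 18623 RPM in mPGCLCs. Of 86 tested arms 9 fell and none rose, with a median log2 of -1.57 beside -0.92 over all arms. Under TMM the median was -0.83, beside -0.16 over all arms, and 6 arms fell, beside 5.7% of all arms. The 9 of 86 that fell are to be read against the 7.31% of all arms that did. A log2 below 0 was seen for 77 of the 86, and for 328 of the 527 tested arms with a BG5 read.

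Mir433-3p had 1219 and 1026 RPM in mPGCLCs against 5195 and 4137 RPM in non-PGCLC cells (log2 -2.06, SE 0.45, adjusted p = 0.0018). Mir434-3p had 1736 and 1459 against 6487 and 5342 RPM (log2 -1.89, SE 0.37, adjusted p = 5.49e-04), with an adjusted p of 0.0556 in the BG5 libraries alone. Mir409-3p, in an intron of Mirg, had 2457 and 1831 against 6435 and 4036 RPM (log2 -1.29, SE 0.38, adjusted p = 0.0219), and 6 of its 13 alternatives lost the call, TMM among them (adjusted p = 0.264). Mir541-5p, the most abundant arm of the list over the 4 libraries, had 3620.4 and 2525 against 7576 and 4556 RPM and was not called (adjusted p = 0.0922). In each of these 4 arms the groups did not overlap, with mPGCLCs lower, as for 35.3% of all tested arms. The log2 values of the 3 called arms lay nearer 0 than those of the let-7 arms. The other arms of the cluster that fell were Mir127-3p, Mir134-5p, Mir379-5p, Mir382-5p, Mir431-5p and Mir485-3p.

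Of the 236 tested arms in none of the lists, 1 rose and 7 fell, beside 4.99% and 7.31% of all arms. The one that rose, named after its value was seen, was Mir672-5p, with 412 and 414 RPM against 149.6 and 133 RPM (log2 1.55, SE 0.40, adjusted p = 0.0087). The most abundant of those that fell come from introns of 2 imprinted genes that are expressed from the paternal allele. Mir335 (chr6:30741299-30741396) lies in an intron of Mest, and Mir335-3p had 1079 and 739 RPM against 10344 and 5969.8 RPM (log2 -3.17, SE 0.39, adjusted p = 1.01e-06). Mir483 (chr7:142654924-142654996) lies in an intron of Igf2, and Mir483-5p had 249 and 146 against 8363 and 3626 RPM (log2 -4.92, SE 0.53, adjusted p = 2.47e-07). The other arms of these hairpins, named after their values were seen, also fell, Mir335-5p from 3919.8 and 2562 to 273 and 204 RPM and Mir483-3p from 3918 and 2737 to 217 and 57.4 RPM. The transcripts of Mest and Igf2 were not analysed here. Mir574-5p, from an intron of Fam114a1, had 0.364 and 2.54 RPM against 244 and 167 RPM (log2 -7.13, SE 2.34, adjusted p = 0.0464), and 7 of its 12 alternatives lost the call.

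**Figure D2:**
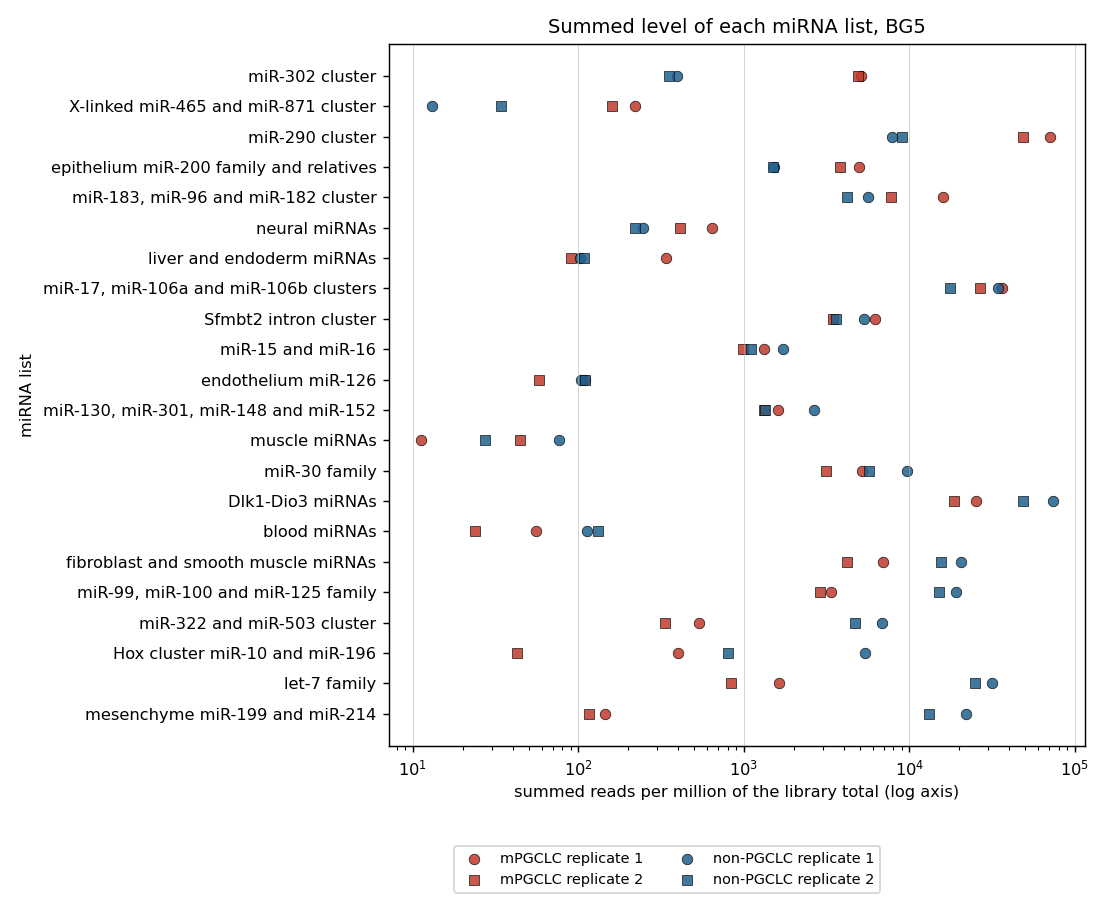
Summed RPM of each miRNA list (log axis) in the 4 BG5 libraries, lists ordered by the ratio of the group means. The miR-302, miR-465 and miR-290 lists lie highest in mPGCLCs relative to non-PGCLC cells, and the mesenchyme, let-7 and Hox lists lowest.

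Lists for endothelium, blood, muscle, neural and liver cells, which embryoid bodies could also hold, had no arm that fell. They had 2, 6, 4, 9 and 5 tested arms, and 7.31% of all arms fell. With so few arms tested, the absence of falls hardly sets these lists apart. The endothelium arms Mir126a-3p (109 and 46.5 against 92.0 and 72.3 RPM) and Mir126a-5p (0 and 11.6 against 11.3 and 37.8 RPM) were not called. In the blood list Mir150-5p rose, with 25.9 and 6.55 RPM against 0 reads in both non-PGCLC libraries, at least 61.9-fold higher against the floor of 3 reads per library (adjusted p = 0.015), and 3 of its 13 alternatives lost the call. The arm shared by Mir486 and Mir3107 (10.5 and 4.4 against 106 and 49.0 RPM), Mir223-3p (18.9 and 0 against 7.19 and 62.2 RPM) and Mir142-3p (0 and 11.9 against 0 and 8.38 RPM) were not called. The highest sum of either list in a BG5 library was 131 RPM, in non-PGCLC replicate 2. The blood sum of 55.4 and 23.9 RPM in mPGCLCs lay under the 113 and 131 RPM of non-PGCLC cells without overlap.

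Muscle arms were at similarly low levels, with Mir1a-3p at 11.2 and 26.8 against 61.8 and 18.1 RPM, Mir133a-3p at 0 and 11 against 6.98 and 9.21 RPM, Mir1b-5p at 0 and 0 against 7.3 and 0 RPM and Mir499-5p at 0 and 6.84 against 0.106 and 0 RPM. None was called, and the median log2 of the list was -0.81 with total-read scaling and 0.12 under TMM. Of the neural list, Mir9-5p had 310.0 and 171 against 42.5 and 36.1 RPM, Mir128-3p 276 and 168 against 197 and 163 RPM, Mir9-3p 0 and 49.5 against 0 and 0.0692 RPM and Mir219a-2-3p 35.5 and 6.75 against 0.106 and 0.0692 RPM, none of them called. The neural sum of 639 and 409.8 RPM in mPGCLCs lay above the 247 and 221 RPM of non-PGCLC cells without overlap.

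In the liver and endoderm list Mir375-3p had 313 and 74.8 against 97.6 and 49.8 RPM, Mir122-5p 0 and 9.78 against 0 and 59.1 RPM, Mir192-5p 26.7 and 0 against 0.106 and 0 RPM and Mir194-5p 0 and 5.87 against 4.34 and 0 RPM, none of them called. Broadly expressed lists also gave no call among their 6, 9 and 13 tested arms, beside 12.3% of all arms called. Their sums were 1322 and 982 RPM in mPGCLCs and 1735 and 1105 RPM in non-PGCLC cells for miR-15 and miR-16, 5144 and 3142 against 9742 and 5669.7 RPM for the miR-30 family, and 1607 and 1316 against 2645 and 1336 RPM for miR-130, miR-301, miR-148 and miR-152.

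Mir16-5p had 779 and 625 against 1086 and 717 RPM, Mir15b-5p 356 and 304 against 433 and 338 RPM, Mir15a-5p 83.0 and 6.94 against 157 and 29.9 RPM and Mir15b-3p 95.0 and 20.2 against 50.0 and 9.9 RPM. Of the miR-30 arms, Mir30d-5p had 2153 and 1218 against 4558 and 2377 RPM, Mir30a-5p 982 and 594 against 2205 and 1224 RPM, Mir30e-5p 971 and 534 against 1478 and 892 RPM and Mir30c-5p 955 and 700.1 against 1059.7 and 1024 RPM. Mir130b-5p had 471 and 464 against 1014 and 629.5 RPM, Mir148a-3p 489 and 415 against 822 and 318 RPM, Mir148b-3p 225 and 151 against 214 and 117 RPM and Mir130b-3p 146 and 89.3 against 135 and 75.0 RPM. None of these 12 arms passed the test.

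**Figure D3:**
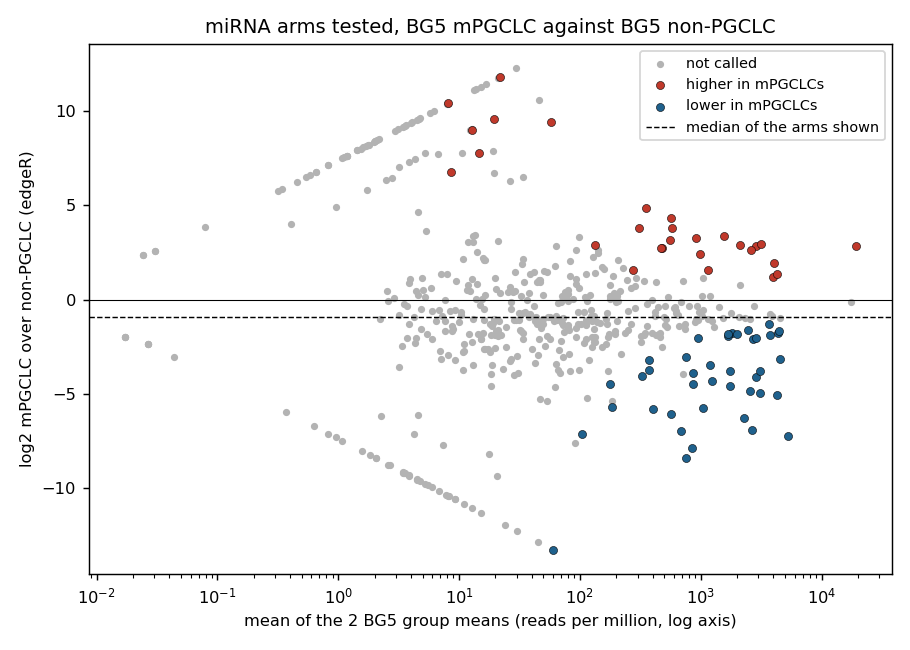
Difference between the BG5 groups (log2 mPGCLC over non-PGCLC, edgeR) against the mean of the 2 group means (RPM, log axis) for the 527 tested arms with a BG5 read. Called arms are red (28, higher in mPGCLCs) or blue (41, lower), the dashed line is the median of -0.92, and the straight diagonal rows of points are arms with no read in one group, whose fitted log2 depends on the prior count.

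The ends of the miRNA reads were also compared, as a description with no test. For 85 named or called arms with at least 50 reads in every BG5 library, the most frequent read was the same sequence in both groups for 73 arms, and for 83 it had the same first 8 bases and so the same seed. Reads that end in 1 or more U not encoded by the hairpin made up 4.06% and 3.81% of miRNA reads in mPGCLCs and 5.32% and 5.85% in non-PGCLC cells, without overlap. Added A was at 8.99% and 8.21% against 8.46% and 8.34%, and the groups overlapped.

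Arm by arm, the U difference was less even. Of 153 arms with at least 500 reads in each BG5 library, 38 (24.8%) had a lower U share in both mPGCLC libraries than in both non-PGCLC libraries and 16 (10.5%) a higher one. For A the numbers were 31 (20.3%) and 27 (17.6%). In E14, of 128 such arms 10 had a lower and 32 a higher U share in mPGCLCs, the opposite balance.

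Mean read length within an arm leaned to shorter reads in BG5 mPGCLCs: 70 of the 153 arms (45.8%) were shorter in both mPGCLC libraries and 7 (4.58%) longer. The median over arms was 22.2 and 22.2 nt in mPGCLCs and 22.4 and 22.3 nt in non-PGCLC cells. In E14, of 128 such arms 32 were shorter and 11 longer in mPGCLCs, the same direction, and the difference between the lines was not tested. Among reads without added bases, 48 of 136 arms (35.3%) were shorter and 8 (5.88%) longer. Reads under 18 nt, which enter no arm, were also a larger part of the mPGCLC libraries (given with the RNA classes), and their part in the length difference was not tested.

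The second comparison asked which other RNA classes differ. With 2 libraries against 2 the smallest two-sided p of an exact permutation test is 0.333, so shares are given as values with no test. miRNA reads made up 21.7% and 15% of the mPGCLC libraries and 32.5% and 21.6% of the non-PGCLC libraries, with overlapping groups. Reads under 18 nt made up 42.8% and 47.1% against 32.0% and 41.8%. Reads of at least 18 nt with no match to the annotated transcripts used here made up 30.6% and 33.5% against 31.5% and 32.5%.

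Reads from small nucleolar RNAs (snoRNAs), which guide the modification of ribosomal RNA, made up 1.17% and 0.925% of the mPGCLC libraries and 0.764% and 0.53% of the non-PGCLC libraries, and the groups did not overlap. The same order held among reads of at least 18 nt, at 2.04% and 1.75% against 1.12% and 0.912%. rRNA and mitochondrial rRNA reads were higher in mPGCLCs without overlap, at 0.213% and 0.198% against 0.16% and 0.125%, and at 0.114% and 0.102% against 0.0924% and 0.0676%. Of the 2 mitochondrial rRNA genes detected, mt-Rnr2 held the most reads and was not higher (log2 -0.18). The class of miscellaneous RNAs, mostly the Y RNAs of Ro particles, was lower, at 0.193% and 0.239% against 0.325% and 0.309%. Shares of snRNA, mitochondrial tRNA, protein-coding and other long transcripts overlapped between the groups.

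Gene by gene, 1 of 271 annotated small RNA genes other than miRNAs passed the test (0.369%), and 60 had an unadjusted p under 0.05. The groups did not overlap for 105 genes higher in mPGCLCs (38.7%) and 18 lower (6.64%). The gene called was Gm25091, annotated as a snoRNA, with 68.1 and 43.2 RPM in mPGCLCs against 1.38 and 1.8 RPM (log2 5.12, SE 0.74, adjusted p = 0.0152 by the edgeR quasi-likelihood test). Under TMM scaling its adjusted p was 0.0558, and without non-PGCLC replicate 2 it was 0.0765. With DESeq2, 31 of the 271 genes were called, 13 higher and 18 lower. The median log2 of the 219 snoRNA genes tested was 1.02 with total-read scaling and 0.20 under TMM, beside 0.89 and 0.02 over all 271 genes.

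The most covered gene of each class did not pass the edgeR test. The U3 snoRNA group had 1943 and 779 RPM against 1081 and 965 RPM, the Rny1 group 1236 and 1728 against 2142 and 1959 RPM, and the snRNA group that includes Rnu2-10 796 and 495 against 801 and 589.9 RPM. The leading rRNA gene group had 1375 and 1401 against 1206 and 926 RPM, and mt-Rnr2, the large mitochondrial rRNA, 656 and 456 against 794 and 468 RPM. The mitochondrial tRNA gene mt-Ts2 had 99.9 and 30.6 against 19.3 and 139 RPM. The scaRNA Gm22009 had 35.0 and 4.01 against 0.423 and 59.0 RPM, and the group with Rpph1, the RNase P RNA, 8.73 and 17.5 against 12.2 and 39.2 RPM. In DESeq2 the Rny1 group (adjusted p = 1.55e-06), the Rnu2-10 group (adjusted p = 0.0427) and mt-Rnr2 (adjusted p = 0.0157) were called lower. DESeq2 used size factors estimated from these genes in place of total reads. Its median log2 over the 271 genes was 0, against 0.89 with total-read scaling in edgeR.

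Reads were also counted by length and first base, in 108 classes, of which 4 (3.7%) passed the test, 1 higher (0.926%) and 3 lower (2.78%). Reads of 24 nt beginning with U made up 1.41% and 1.02% of mPGCLC reads against 2.78% and 1.83% (log2 -0.93, edgeR adjusted p = 0.0284). Reads of 21 nt beginning with U were at 1.69% and 1.24% against 2.64% and 2.14% (edgeR adjusted p = 0.0284), and those of 22 nt beginning with C at 0.861% and 0.663% against 1.5% and 1.0% (edgeR adjusted p = 0.0454). Under TMM scaling these 3 falls did not pass the test, and the split turned to 3 higher and 0 lower (11 classes at an unadjusted p under 0.05), with DESeq2 to 5 higher and 0 lower (12 classes). The 3 higher under TMM were reads of 43 nt beginning with U, A and C (edgeR adjusted p = 0.00658, 0.0131 and 0.0232). Reads of 43 nt, the longest in the files, made up 0.455% and 0.506% of mPGCLC reads against 0.211% and 0.26%. No read lay between 40 and 43 nt, and whether 43 nt is the full length of these RNAs was not tested. The class that rose with total-read scaling was 43 nt beginning with U, at 0.156% and 0.162% against 0.0608% and 0.0795% (edgeR adjusted p = 0.0454). None of the 4 passed without mPGCLC replicate 2 or without non-PGCLC replicate 1, and without non-PGCLC replicate 2 the number of called classes was 16.

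**Figure D4:**
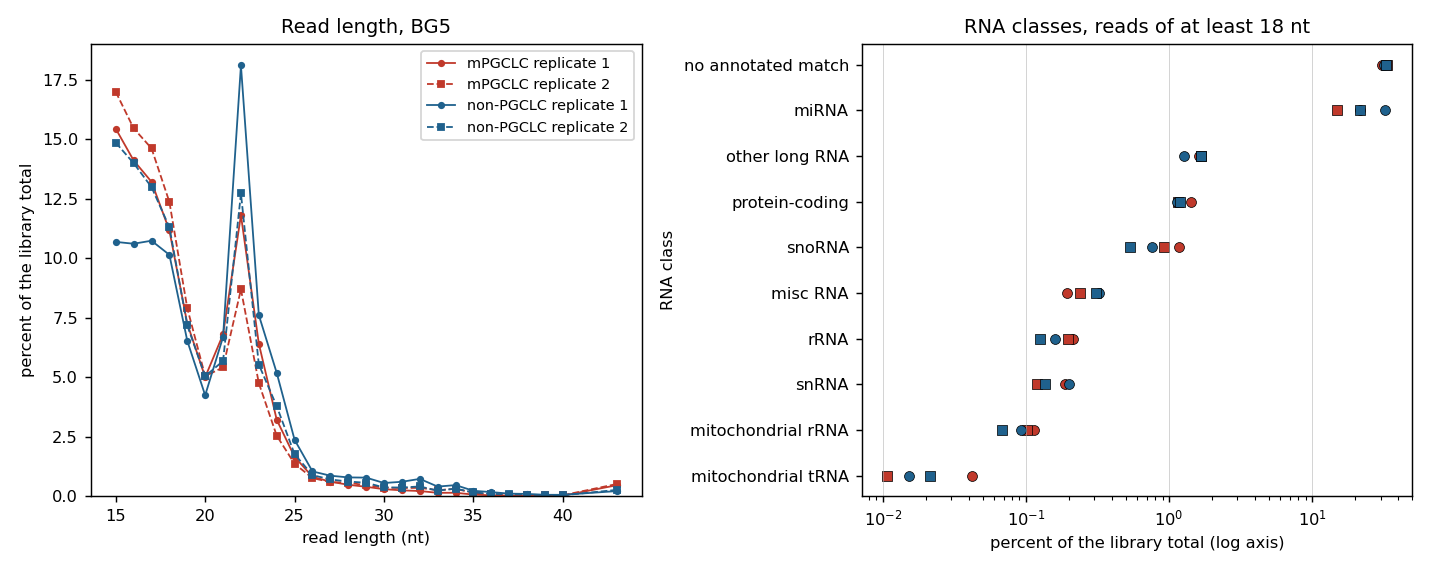
Left, percent of all reads of a library by read length (nt), 1 line per BG5 library. Right, percent of all reads (log axis) in each RNA class of reads of at least 18 nt. At 22 nt the non-PGCLC lines reach 18.1% and 12.7% and the mPGCLC lines 11.8% and 8.69%.

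The last comparison asked whether the cell-type difference of BG5 equals that of E14, a reporter-free male line of 129/Ola background whose mPGCLCs were gated, per the methods, on SSEA1 and CD61. It had 2 mPGCLC and 2 non-PGCLC libraries, and line and gate cannot be told apart. The difference between the lines passed the test for 31 of 561 arms (5.53%), of which 14 (2.5%) were more positive in BG5 and 17 (3.03%) more negative. Under TMM these numbers were 22 and 10, and without BG5 non-PGCLC replicate 2 they were 19 and 28. Within E14 itself, 8 arms passed the test (1.43%), all lower in mPGCLCs, and 64 had an unadjusted p under 0.05 (11.4%). The miR-290 cluster summed to a mean of 210107 RPM in E14 mPGCLCs and 113973 RPM in E14 non-PGCLC cells, so even the E14 non-PGCLC mean lay above both BG5 mPGCLC libraries. The let-7 family summed to a mean of 9017 RPM in E14 mPGCLCs and 6299 RPM in E14 non-PGCLC cells. The mesenchyme list was lower in E14 mPGCLCs as well, at a mean of 21.3 RPM against 1151 RPM.

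For let-7a-5p the log2 difference was -5.05 in BG5 and 0.66 in E14, and the difference between the lines was -5.71 (SE 0.58, adjusted p = 4.63e-07) by the edgeR quasi-likelihood test. Mir302b-3p stood at 3.36 in BG5 and -0.17 in E14, with a difference between the lines of 3.53 (SE 0.65, adjusted p = 8.31e-04) in the edgeR fit. For the miR-199-3p arm the values were -7.21 and -6.11, and the difference between the lines did not pass the test, -1.09 (SE 0.54, adjusted p = 0.33) in edgeR. Mir214-3p (-6.93 and -6.21) and Mir125b-5p (-6.28 and -5.76) likewise gave no called difference between the lines.

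**Figure D5:**
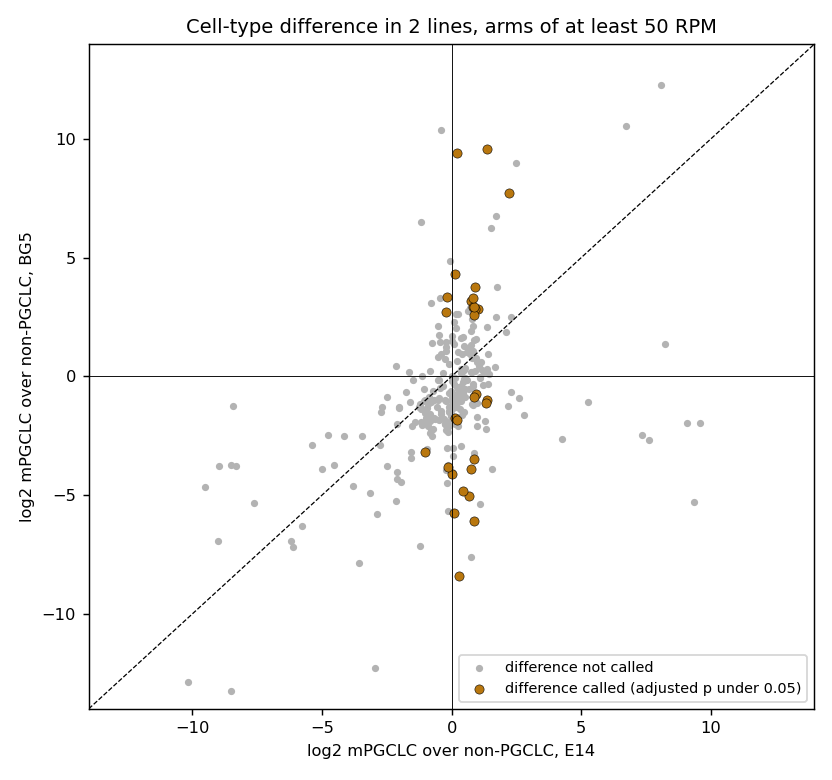
Log2 difference between mPGCLC and non-PGCLC libraries in BG5 (vertical) against that in E14 (horizontal), 1 point for each of the 296 tested arms with at least 50 RPM in one of the 4 group means. Brown points are the 30 arms whose difference between the lines passed the test, among them the let-7 arms at the bottom (let-7a-5p at -5.05 in BG5 and 0.66 in E14), and the dashed line marks equal differences.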

How the data were processed

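Small RNA of 10 libraries was sequenced by the authors after miRNeasy-micro extraction of sorted cells and NextFlex v3 library preparation, with an overnight ligation that favours 2′-O-methylated 3′ ends. Adapters and 4 random bases per end were removed with cutadapt 3.2 and reads were mapped to GRCm38 with STAR 2.5.3a, with tool versions as the submitters' processing notes give them. Each deposited table holds raw counts made by the authors, 1 row per distinct mapped sequence of 15 to 43 nt. Runs of 2 instruments were merged, and the part of each in a library is not given in the sources used here.

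From these counts, reads of 18 to 26 nt were assigned to the arms of 1174 GENCODE vM21 miRNA hairpins by sense match, with the first 18 bases exact and at most 2 later mismatches. Features that shared more than 50% of their reads were merged. Other reads of at least 18 nt were matched exactly to annotated transcripts, with cytoplasmic tRNA genes not used here.

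Arms, other small RNA genes, and classes of length and first base were tested with edgeR 4.0.16 (quasi-likelihood, R 4.3.3) over all 10 libraries as 5 group means, with the total reads as library size, filterByExpr and Benjamini-Hochberg adjustment at 0.05. Shares have no test. SE was taken as the log2 divided by the square root of F. On simulated data with 200 of 561 arms changed 8-fold, the arm test recovered 18% at the spread of these libraries and 99.5% at a small fixed spread, so arms that were not called may still differ, and the spread between libraries limits the calls.

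Alternatives were TMM scaling, DESeq2 1.42.0, a replicate block, other filters, read lengths and matching, each BG5 library left out, and the BG5 libraries alone. DESeq2 used its own size factors in place of total reads. Named arms were those past the threshold without overlap and with at least 50 RPM in the higher group, the 8 largest rises and falls by log2 and the 6 largest by RPM, the 5 largest differences each way between the BG5 and E14 effects, plus the 4 most abundant arms of each of 22 lists, and for small RNA genes the most covered of each class. The lists were the miR-290, miR-302, miR-17 with miR-106, let-7, miR-99 with miR-100 and miR-125, mesenchyme, fibroblast, endothelium, blood, muscle, epithelium, neural, liver, Hox, Dlk1-Dio3, Sfmbt2, miR-465, miR-183, miR-322, miR-15, miR-30 and miR-130 lists. The comparison, the named members and the lists were chosen with earlier results of these data known.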

Additional observations from a re-analysis of the deposited data

Results flagged for a closer look

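For 24 of the 96 named arms, and for 31 (5.53%) of all 561 tested arms, the cell-type difference in BG5 differed from that in E14 by a test of the difference itself (edgeR, adjusted p under 0.05). The values are log2 differences, BG5 effect minus E14 effect, and BG5 and E14 share no libraries. Of the 24 arms, 10 were among those named for the size of this same difference.

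Within E14 no arm was called higher in mPGCLCs. In the miR-290 cluster the BG5 log2 exceeded that of E14 by 2.88 for Mir291a-3p, 2.48 for Mir295-3p, 2.42 for Mir291a-5p and 2.11 for Mir292-3p. The excess was 1.92 for Mir292-5p, 1.84 for Mir290a-5p and 1.75 for Mir293-3p. For the miR-302 cluster it was 3.53 for Mir302b-3p and 4.18 for Mir302d-3p. Mir183-3p differed by 9.20 (SE 1.49, adjusted p = 1.56e-04) in edgeR. In the X-linked cluster the Mir465c-5p arm differed by 8.19 and the Mir465-3p arm by 5.51, both with few reads in BG5 non-PGCLC cells.

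Negative differences were led by let-7. The BG5 effect minus that of E14 was -8.72 for let-7i-5p, -6.94 for let-7b-5p, -5.84 for let-7d-5p and -5.71 for let-7a-5p. For let-7c-5p the difference was -5.27, for let-7f-5p -4.34 and for let-7e-5p -3.66. Mir143-3p differed by -4.10 (SE 0.59, adjusted p = 4.01e-05) in edgeR. The remaining differences were -2.46 for Mir30a-5p, -2.14 for Mir335-3p, -2.04 for Mir99b-5p and -1.91 for Mir125a-5p.

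Of the 24 differences, 16 kept their call under each of the 16 alternatives, among them those of the let-7 arms, Mir143-3p, Mir183-3p and Mir302b-3p. With the replicate block and the BG5 numbers crossed, which is not one of the 16, 9 of the 24 kept it (2 positive and 7 negative) and 15 did not, the calls in the miR-290 cluster and that for let-7e-5p among those lost. Under TMM scaling those for Mir125a-5p, Mir335-3p and Mir99b-5p were no longer called (adjusted p = 0.118, 0.0524 and 0.178 in edgeR). Mir99b-5p lost the call in 9 of 16 alternatives, with a value of -1.45 without BG5 non-PGCLC replicate 1 (adjusted p = 0.288 in edgeR) and -0.72 with miRNA reads as library size. The Mir465-3p arm lost it in 5, with 3.51 without E14 non-PGCLC replicate 1 (adjusted p = 0.304 in edgeR), and also without either E14 mPGCLC library, without BG5 mPGCLC replicate 2 and with the replicate block. Mir293-3p lost it in 4, among them without E14 mPGCLC replicate 1 (adjusted p = 0.137 in edgeR) and without E14 non-PGCLC replicate 1 (adjusted p = 0.0745 in edgeR). Mir125a-5p lost it in 4, among them without E14 mPGCLC replicate 1 or E14 non-PGCLC replicate 2 (adjusted p = 0.0668 and 0.0762 in edgeR), and had -0.65 with miRNA reads as library size. With that library size Mir335-3p had -0.84 and Mir30a-5p -1.20, neither called, and Mir30a-5p also lost the call without E14 mPGCLC replicate 2 (adjusted p = 0.0622 in edgeR). Mir302d-3p lost it without BG5 mPGCLC replicate 2 (adjusted p = 0.0811 in edgeR) and Mir292-5p with the stricter low-count filter (adjusted p = 0.0526 in edgeR). The lines differ also in genetic background and gate, and the part of either was not tested.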

How the results depend on the processing

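Of 48 named arms called, 27 kept the call in every alternative run for them, including the crossed replicate block given with the pairing, under which 36 of the 48 were called, and none of those 48 changed sign there. Leaving the crossed block aside, none of the 96 named arms turned to a call in the other direction, and of the 48 not called, 20 were called in some alternative. The number of called arms stayed within 1.5 times of 69, between 46 with the BG5 libraries alone and 92 with the replicate block (33 higher and 59 lower), except for DESeq2 with 121 (68 higher and 53 lower). Leaving out 1 BG5 library, with the remaining one assumed to vary like the other groups, gave 62 to 82 called arms. The difference between the lines, 31 arms, was 76 with DESeq2 (46 positive and 30 negative) and 30 to 47 with 1 library left out. The cause was not tested.

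Of the small RNA genes, where 1 was called, edgeR called 0 under TMM scaling (35 at an unadjusted p under 0.05), 0 with the replicate block (41), 0 with the BG5 libraries alone (41), 14 without a low-count filter and 2 with the stricter filter, against 31 with DESeq2. Leaving out 1 library gave 0 to 3, the 0 without non-PGCLC replicate 2 (56 at an unadjusted p under 0.05). The 4 called length classes became 0 to 16 with 1 library left out, the 0 without mPGCLC replicate 2 (31 at an unadjusted p under 0.05) or without non-PGCLC replicate 1 (7), against 3 under TMM and 5 with DESeq2, all of these higher in mPGCLCs.

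Replicate numbers were shared between groups by number only. Deviations of same-numbered libraries correlated at 0.019 in BG5 and -0.051 in E14 over arms, -0.0096 and -0.073 over small RNA genes, and -0.40 and 0.48 over length classes. With the replicate block 19 length classes were called (7 higher and 12 lower). With the BG5 numbers crossed, an alternative chosen after seeing the data for the negative correlation in the length classes, the number was 60 (5 higher and 55 lower). The same crossed fit gave 50 called arms (21 higher and 29 lower), 10 arms that differed between the lines (2 positive and 8 negative) and 1 small RNA gene.

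Differences in share of reads, mPGCLC minus non-PGCLC in percentage points, kept their direction under each denominator. That for miRNA reads as a whole (-8.68) did not move by more than 1 SD, and the differences given next did. The miR-290 cluster went from 5.14 to 9.45 over reads of at least 18 nt, 29.3 over miRNA reads and 0.164 over distinct sequences. In the same order the miR-302 cluster went from 0.461 to 0.846, 2.66 and 0.0323, let-7 from -2.7 to -4.24, -9.96 and -0.0995, and the mesenchyme list from -1.75 to -2.73, -6.37 and -0.145. Dlk1-Dio3 miRNAs went from -3.92 to -10.5 over miRNA reads and -0.353 over distinct sequences, and snoRNA from 0.399 to 0.876 over reads of at least 18 nt.

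The results hold for 2 libraries per group of 1 line. With 48 arms at 0 reads in one mPGCLC library and at least 100 in the other, and 66 such arms between the non-PGCLC libraries, the calls rest on a wide spread between libraries.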
